A study of Homo sapiens with 12 samples.

Results

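The deposited table holds 65535 transcript clusters, which may not be the whole array, and 7802 of them belong to human chromosome 6. These were chosen because their identifiers begin with the array's prefix for that chromosome. Below, all clusters means all clusters of this table, and each background is a share of it. A transcript cluster is a group of probes designed against the transcripts of 1 locus, and each cluster has 1 intensity per array, given here as log2. Of the 7802 clusters, 942 (12.1%) were bright, which here means that their log2 intensities averaged 7 or more across all 12 arrays, against 11.9% of all clusters. The bound is arbitrary, and the clusters nearest to it had means of 6.9988 just outside and 7.0056 just inside. A single gene symbol could be given to 1877 of the 7802 clusters and to 608 of the 942 bright ones, so 334 bright clusters are unnamed here.

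Chromosome 6 carries the major histocompatibility complex (MHC), whose class I molecules present peptides from inside the cell to CD8+ T cells and whose class II molecules present peptides from the endosomal route to CD4+ T cells. Interferon gamma (IFNg) induces transcription factors such as IRF1, and with them the transactivators NLRC5 for class I genes and CIITA for class II genes. The same chromosome arm carries the main cluster of replication-dependent histone genes, which are expressed in S phase and whose mRNAs end in a stem-loop in place of a poly(A) tail. Silvestrol is a plant compound that clamps the RNA helicase eIF4A on mRNA and so inhibits the start of translation.

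The cells were A375, an established human melanoma line, and the 12 arrays form 6 groups of 2. DMSO cells had the vehicle for 2 h, IFNg cells had IFNg for 24 h, and cells given both agents had IFNg for 24 h and silvestrol for 2 h. Each treatment was measured in total RNA and in RNA associated with polysomes, the fraction bound by several ribosomes. No vehicle is named for the IFNg samples and there is no group with silvestrol alone, so every silvestrol difference below is between cells that all had IFNg. All groups are 1 cell line, and the labels do not say that replicates came from separate cultures, so each p-value reflects only how far these samples differ from one another, which may be technical variation. Since RNA was taken in bulk, fewer cells of a kind and less RNA per cell cannot be told apart.

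The melanocyte regulator MITF had log2 levels of 12.19 to 14.5 (median 12.9), while the pigment cell antigen MLANA lay at 5.14 to 6.94. The leukocyte marker PTPRC (4.23 to 5.45) and the monocyte marker CD14 (4.35 to 5.9) stayed below the bright bound on every array. The other markers looked for, PMEL, SOX10, AXL, CD3E and LYZ, had no row of their own in the table. Bright chromosome 6 clusters had array medians of 9.34 and 9.44 in polysomal IFNg and of 9.61 to 10.06 on the other 10 arrays. The polysomal IFNg arrays also had the lowest mean intensities over all clusters, 1237 and 1347, against 1469 to 1720 elsewhere. Between the replicates of a group, Pearson's r over the 942 bright clusters was 0.965 to 0.987.

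Promoter sequence was read for the genes the results turn on, from RefSeq's GRCh38.p14, which is not known to be the build of the array. Each window holds the 250 bases before the annotated start, printed on the gene's own strand, and capitals mark every match to 1 of 4 motifs searched on both strands. These are the interferon-gamma-activated sequence (GAS) TTCNNNGAA, the IRF-type motif GAAANNGAA, the CCAAT box CCAAT and the octamer ATTTGCAT. A match is a match of letters and no evidence of binding, and its absence says nothing about the factor. The first 3 windows belong to genes that rose with IFNg, in antigen processing (TAP1, at chr6:32853705-32853954, minus strand, the first of its 2 annotated starts), class I (HLA-F, at chr6:29723184-29723433, plus strand) and class II (HLA-DOA, at chr6:33009592-33009841, minus strand).
TAP1: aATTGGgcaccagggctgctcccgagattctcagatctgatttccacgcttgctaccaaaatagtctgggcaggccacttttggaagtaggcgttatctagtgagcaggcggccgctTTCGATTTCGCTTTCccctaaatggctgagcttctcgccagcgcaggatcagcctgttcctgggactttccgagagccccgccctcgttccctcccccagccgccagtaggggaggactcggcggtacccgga
HLA-F: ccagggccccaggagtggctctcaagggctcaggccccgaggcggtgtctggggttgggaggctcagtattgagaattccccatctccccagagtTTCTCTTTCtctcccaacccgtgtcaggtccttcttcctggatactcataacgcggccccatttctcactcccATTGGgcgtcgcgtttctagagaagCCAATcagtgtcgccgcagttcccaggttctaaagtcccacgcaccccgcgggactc
HLA-DOA: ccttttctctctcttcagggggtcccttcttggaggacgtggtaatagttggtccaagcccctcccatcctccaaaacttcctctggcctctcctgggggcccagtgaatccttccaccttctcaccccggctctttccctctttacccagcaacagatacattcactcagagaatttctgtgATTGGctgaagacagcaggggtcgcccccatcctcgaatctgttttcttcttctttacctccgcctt

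TAP1 carries a pair of overlapping IRF-type matches on the opposite strand, with a CCAAT match at the far end of the window. HLA-F has 1 IRF-type match and 2 CCAAT matches, and HLA-DOA has 1 CCAAT match. Among genes with a window, the IRF-type motif occurred in 3 of 5 antigen-processing genes, 4 of 10 class II genes and 1 of 6 class I genes, against 8.41% of all 27305 genes. The GAS motif occurred in 2 of 5 antigen-processing genes (PSMB8 and, before its other start, TAP1), in 1 of 10 class II genes and in 0 of 6 class I genes, against 8.09% of all. CCAAT matched 6 of 6 class I genes and 9 of 10 class II genes, against 37% of all. The 6 class I genes include MICA and MICB, which were not called higher with IFNg. HLA-E, which rose, had no window. The octamer matched none of these 3 lists, against 2.03% of all genes.

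The other 2 windows belong to histone genes that fell most on polysomes with IFNg among the named bright histone clusters, the linker histone H1-4 (chr6:26156079-26156328, plus strand) and the core histone H2BC17 (chr6:27893175-27893424, plus strand).
H1-4: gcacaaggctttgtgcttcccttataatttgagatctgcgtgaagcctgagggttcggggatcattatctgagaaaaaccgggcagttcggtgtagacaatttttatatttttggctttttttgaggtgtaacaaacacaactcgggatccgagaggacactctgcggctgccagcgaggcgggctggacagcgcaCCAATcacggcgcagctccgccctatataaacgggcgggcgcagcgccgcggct
H2BC17: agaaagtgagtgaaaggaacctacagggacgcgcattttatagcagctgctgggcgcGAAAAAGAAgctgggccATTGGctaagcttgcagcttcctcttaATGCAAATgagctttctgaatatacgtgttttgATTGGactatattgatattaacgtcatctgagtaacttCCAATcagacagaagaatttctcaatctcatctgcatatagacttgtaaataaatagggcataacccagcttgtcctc

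H2BC17 holds 3 CCAAT matches, 1 octamer match and 1 IRF-type match, and H1-4 a single CCAAT match. CCAAT occurred in 38 of 45 histone genes (84.4%). The octamer was found in 12 of 14 H2B genes (85.7%) and in 18 of the 45 histone genes. The IRF-type motif also matched 11 of the 45 histone genes (24.4%) and 7 of the 14 H2B genes (50%). The H2B share was larger than in the class I list (16.7%) or the class II list (40%) and smaller than in antigen processing (60%). The share over all histone genes was above that of class I, which was 1 of 6 genes, and below that of class II.

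Levels over the chromosome were mostly low. The median cluster had a log2 intensity of 4.12, and 5597 clusters (71.7%) lay below 5, where no detection call separates them from background. Bright clusters had a median of 9.79, and 117 of them reached 14. The brightest was RN7SK, the small nuclear RNA that holds the elongation factor P-TEFb inactive, at 19.26 (18.93 to 19.5 over the 12 arrays). EEF1A1, which brings aminoacyl-tRNA to the ribosome, had 19.25 (19.03 to 19.45), and neither passed the test in any comparison of 2 groups. Other named clusters at the top, picked after their values were seen, were the histone H4C3 (18.96), the class II chain HLA-DRA (17.77), the ribosomal protein gene RPS18 (17.72) and the chaperone HSP90AB1 (17.28). Neighbours on the array's list varied together only weakly, with a median Pearson's r of 0.23 over the 12 arrays for 941 adjacent pairs of bright clusters.

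IFNg against DMSO asks which loci the cytokine moved at 24 h, and on chromosome 6 antigen presentation genes had the largest increases among named genes. In total RNA, limma's moderated test with Benjamini-Hochberg adjustment over all 65535 clusters called 56 chromosome 6 clusters higher and 3 lower. The background over all clusters of the table was 0.287% higher and 0.0244% lower. Among bright clusters 44 rose (4.67%, against 1.83% of all bright clusters) and 2 fell (0.212%, against 0.102%). In polysomal RNA 64 rose (background 0.478%) and 161 fell (background 1.93%), and among bright clusters 44 rose (4.67%, background 2.13%) and 141 fell (15%, background 13.4%). The share of chromosome 6 clusters that fell was therefore near the background. The 2 fractions come from different arrays, but the labels do not say whether they came from the same cultures. In both fractions 44 clusters rose, 78.6% of the 56 and 68.8% of the 64.

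The 56 became 35 without total DMSO replicate 1 and also without total IFNg replicate 1, and the 64 became 42 without polysomal IFNg replicate 2. The 161 became 22 without polysomal DMSO replicate 2, 80 without polysomal IFNg replicate 1 and 45 without polysomal IFNg replicate 2. The split of the polysomal calls also moved with the scaling, from 64 higher and 161 lower to 79 and 65 after quantile normalization, and to 849 and 110 when arrays were centred on their bright clusters. That centring shifted the median change of all clusters by 0.54.

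TAP1, a subunit of the transporter that carries peptides into the endoplasmic reticulum, rose most among named bright clusters. Its log2 level in total RNA was 7.23 and 7.75 with DMSO, 15.50 and 15.40 with IFNg, and 15.23 and 15.16 with IFNg and silvestrol. On polysomes it was 8.61 and 8.85 with DMSO, 16.64 and 16.59 with IFNg, and 16.95 and 16.62 with both agents. Every IFNg array lay above every DMSO array of its fraction. The change was 7.96 (SE 0.26, adjusted p = 5.89e-09), or 248-fold, in total RNA and 7.88 (SE 0.26, adjusted p = 4.63e-09), or 236-fold, on polysomes. Its partner TAP2 rose by 4.64 and 4.74, from 9.03 and 9.66 to 14.28 and 13.70 in total RNA.

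All 5 antigen-processing genes measured rose in both fractions, with a median change of 4.7 in total RNA and 4.67 on polysomes. Over all bright clusters of the table the medians were -0.1 and -0.44, and 1.83% and 2.13% rose. PSMB9 and PSMB8 encode inducible catalytic subunits of the immunoproteasome. PSMB9 rose by 5.2 (SE 0.36, adjusted p = 8.01e-06), or 36.9-fold, in total RNA and by 4.4, or 21.1-fold, on polysomes. In total RNA it went from 10.18 and 9.24 to 15.13 and 14.70. PSMB8 rose by 4.7 and 4.67, and TAPBP (tapasin, which holds class I molecules at the transporter) by 3.14 and 2.61. No array of a DMSO group overlapped an IFNg array of the same fraction for any of these genes.

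Of 7 class I genes measured, 5 rose in both fractions and 2, the stress ligands MICA and MICB, did not pass in either. HLA-F, a non-classical class I molecule, had total RNA levels of 10.37 and 10.17 with DMSO, 14.92 and 15.43 with IFNg and 14.90 and 15.20 with both agents. Its polysomal levels were 11.44 and 12.09, then 16.17 and 16.03, then 16.34 and 16.33. The IFNg arrays were thus above the DMSO arrays in each fraction, by 4.9 (SE 0.29, adjusted p = 1.41e-06), or 29.9-fold, in total RNA and by 4.34 on polysomes. HLA-E, the ligand of the NKG2A receptor, rose by 4.74 in total RNA and 3.57 on polysomes. HLA-B and HLA-C, the classical molecules that present peptide to CD8+ T cells, rose by 4.12 and 3.62 in total RNA and by 2.56 and 2.29 on polysomes.

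HLA-B started higher on polysomes, at 12.87 and 13.33 with DMSO, than in total RNA, at 10.84 and 11.92, and reached 15.95 and 15.36 against 15.40 and 15.61 with IFNg. The difference between the fractions in the size of a change was tested for every cluster, and neither HLA-B nor HLA-C passed. HLA-G rose by 2.7 and 2.62. MICA, which binds the receptor NKG2D, was at 11.42 and 12.25 on polysomes with DMSO and at 10.52 and 10.60 with IFNg, a change of -1.28 (SE 0.34, adjusted p = 0.0764). MICB, another NKG2D ligand, changed by 0.4 and 0.48. HLA and histone genes have near-identical relatives and pseudogenes, so a probe may read more than 1 locus, which was not tested.

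All 11 class II genes measured rose in both fractions, with a median change of 4.13 in total RNA and 4.07 on polysomes. HLA-DQA1, an alpha chain, was at 5.95 and 6.36 in total RNA with DMSO, at 11.94 and 12.88 with IFNg and at 11.55 and 12.36 with both agents. On polysomes the same groups had 6.43 and 6.29, 12.99 and 13.39, and 12.68 and 13.09. DMSO levels were under the bright bound and IFNg levels far above it, a change of 6.26 (SE 0.36, adjusted p = 1.27e-06), or 76.5-fold, in total RNA and of 6.83, or 114-fold, on polysomes. HLA-DOA, part of the HLA-DO dimer that restrains peptide loading, rose by 6.3 (SE 0.66, adjusted p = 0.000454) in total RNA, from 3.84 and 5.72 to 11.11 and 11.04. As 1 of its DMSO arrays in each fraction lay below 5, the size of this change is uncertain, and alternatives gave 5.36 to 7.24 in total RNA. The other chain of that dimer, HLA-DOB, rose by 2.45 and 3.07, from DMSO levels that were all below 5. HLA-DMB and HLA-DMA form the exchange factor HLA-DM and rose by 5.06 and 3.8 in total RNA and by 4.66 and 3.1 on polysomes.

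The beta chain HLA-DQB1 rose by 5.72 and 4.81. The classical chains HLA-DPB1, HLA-DPA1 and HLA-DRB5 rose by 4.13, 3.36 and 2.55 in total RNA and by 4.07, 3.35 and 2.72 on polysomes. HLA-DRA, the invariant alpha chain of HLA-DR, was already among the brightest clusters with DMSO, at 14.48 and 16.32 in total RNA and 15.10 and 16.65 on polysomes. With IFNg it reached 18.96 and 18.58 in total RNA and 18.88 and 19.08 on polysomes, changes of 3.37 (SE 0.53, adjusted p = 0.0146) and 3.11. DMSO replicate 2 was above replicate 1 in both fractions for this gene and for HLA-DRB1, which had 9.67 and 12.28 in total RNA and 11.01 and 13.43 on polysomes. HLA-DRB1 rose by 4.83 (SE 0.75, adjusted p = 0.0124) and 4.76, with no overlap of the groups. The number of class II genes called was 8 to 11 in total RNA and 9 to 11 on polysomes when single arrays were left out.

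Of 3 distinct complement measurements in the class III region, 1 rose in total RNA and 2 on polysomes, against 0.287% and 0.478% of all clusters. Their median changes were 1.43 and 1.74. C4A, whose product is cut to tag targets for the classical pathway, rose by 1.75 (SE 0.29, adjusted p = 0.0224) in total RNA, from 5.33 and 4.88 to 7.13 and 6.57, and by 1.72 on polysomes. C4B has the same value as C4A on every array, so the pair was counted as 1 measurement. A total DMSO value of C4A lay below 5, so the size of its change is uncertain. C2, a protease component of the same pathway, rose by 2.39 on polysomes and had a change of 1.25 (adjusted p = 0.339) in total RNA. CFB, the alternative pathway's factor B, had changes of 1.43 and 1.74 (adjusted p = 0.0797 on polysomes) and did not pass.

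Of the 8 other interferon-related genes on the list, 3 rose in both fractions. Of all clusters, 0.287% rose in total RNA and 0.478% on polysomes. All 3 genes are butyrophilins of the BTN3A subfamily, which are sensed by gamma delta T cells. BTN3A2 was at 10.39 and 10.29 in total RNA with DMSO and at 13.52 and 13.67 with IFNg, a change of 3.26 (SE 0.32, adjusted p = 0.000258), or 9.55-fold. BTN3A1 and BTN3A3 rose by 2.99 and 2.74 in total RNA and by 2.62 and 2.5 on polysomes. The neighbouring BTN2A2 also rose, by 1.91 and 2.19. UBD, a ubiquitin-like modifier, had changes of 1.98 (adjusted p = 0.0508) and 1.17. The receptor chain IFNGR1 changed by -0.18 and 0.07 and the mitochondrial superoxide dismutase SOD2 by 0.85 and 0.33, and neither passed. TNFAIP3, which restrains NF-kB, fell by 1.66 on the log2 scale on polysomes (adjusted p = 0.0459), a call that 12 of 21 alternatives ended, and the repressor PRDM1 changed by 1.32 and 0.9 without passing.

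Away from antigen presentation, NCOA7, a nuclear receptor coactivator with an interferon-inducible short form, rose by 2.67 (SE 0.27, adjusted p = 0.000318) in total RNA, from 7.94 and 7.97 to 10.66 and 10.59. On polysomes it rose by 1.59. DAAM2, a formin-related Wnt regulator, rose by 2.38 in total RNA, and the death receptor TNFRSF21 by 2.5. MDN1, an AAA ATPase of ribosome assembly, rose on polysomes by 2.19 (SE 0.34, adjusted p = 0.00531), from 7.01 and 7.22 to 8.90 and 9.71. Its total RNA levels were 9.75 and 9.83 with DMSO and 9.53 and 8.66 with IFNg, and those groups ran the other way without passing.

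**Figure D1:**
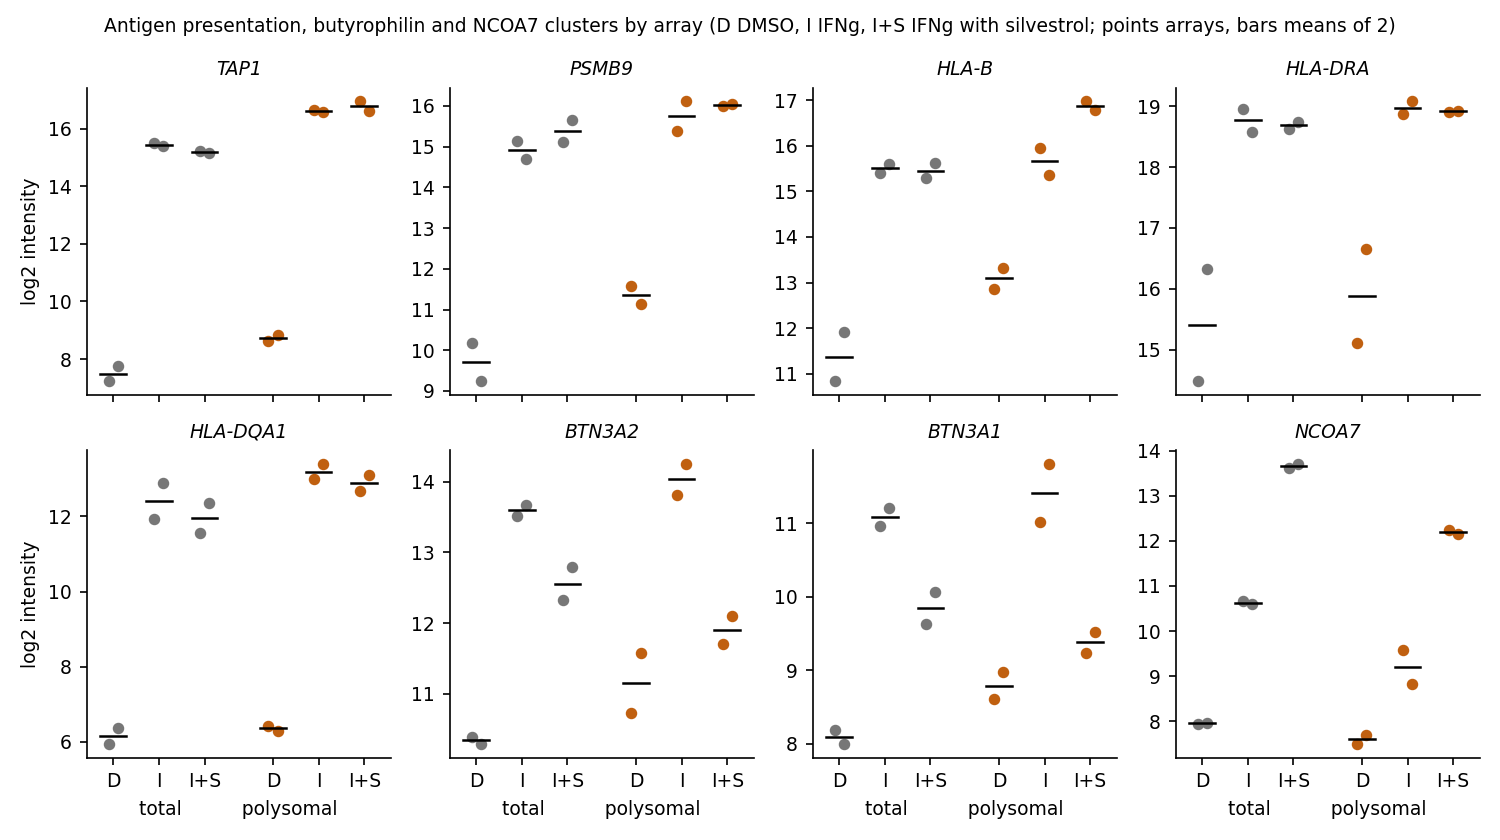
Log2 intensity (vertical, a separate scale for each gene) of TAP1, PSMB9, HLA-B, HLA-DRA, HLA-DQA1, BTN3A2, BTN3A1 and NCOA7 in the 6 groups, with 1 point per array and bars at the means of 2 arrays. TAP1 sits at 7.23 to 8.85 with DMSO and at 15.16 to 16.95 on every array with IFNg, BTN3A2 and BTN3A1 are lower with silvestrol than with IFNg alone on polysomes, and NCOA7 is higher at each step.

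Both bright clusters that fell in total RNA are named. TPD52L1, a coiled-coil protein of the D52 family, went from 14.30 and 13.58 to 12.04 and 12.61 in total RNA and from 13.63 and 13.80 to 10.04 and 10.20 on polysomes. The changes were -1.61 (SE 0.3, adjusted p = 0.0459) and -3.59 (SE 0.3, adjusted p = 7.02e-05). TBC1D7, a subunit of the TSC complex that restrains mTORC1, fell by 2.18 and 3.25 on the log2 scale, and in both genes no array of the groups overlapped. In total RNA 14 of 21 alternatives ended the call of TPD52L1 and 12 of 21 that of TBC1D7. The count of 3 fallen clusters in total RNA was 0 without total DMSO replicate 1. It was 1 without total IFNg replicate 2, without either total array with silvestrol, without either polysomal DMSO array or without either polysomal array with silvestrol.

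A part of the histone genes fell on polysomes with IFNg. The group was put together after its values had been seen, so as a group it gets only counts and medians, and 51 histone clusters were measured, 42 of them bright. On polysomes 18 fell with IFNg, 17 of them bright, and 41 of the 42 bright ones had a change below 0, the exception being H4C8 at 0.36. The median change of the bright ones was -1.67, against -0.44 for all bright clusters of the table, of which 13.4% fell. In total RNA none passed limma's test, 1 had an unadjusted p below 0.05, and the median was -0.09. That median was 0.64 without total DMSO replicate 1 and -0.89 without total DMSO replicate 2. The median difference between fractions was -1.52, and -2.31 and -0.86 without the same arrays. The median level of the bright histone clusters was 14.19 and 14.32 in polysomal DMSO and 11.48 and 12.66 in polysomal IFNg. In total RNA it was 14.13 and 12.02 with DMSO and 12.73 and 13.18 with IFNg, so the total DMSO arrays lay on both sides of the total IFNg arrays.

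H1-4, a linker histone that binds DNA between nucleosomes, was at 16.84 and 16.49 on polysomes with DMSO, at 13.84 and 12.98 with IFNg and at 16.93 and 16.58 with both agents. In total RNA the same groups had 16.59 and 15.20, 15.90 and 15.96, and 16.62 and 16.64. Only the polysomal IFNg pair stood apart, with a change of -3.25 (SE 0.4, adjusted p = 0.00155), 9.53-fold lower. H2BC17, a core histone of the H2B family, was at 13.91 and 14.12 on polysomes with DMSO and at 10.75 and 10.82 with IFNg, a change of -3.23 (SE 0.61, adjusted p = 0.0153), 9.39-fold lower. The H2B gene H2BC3 fell by 3.06 and the H3 gene H3C1 by 2.84 on the log2 scale. H4C8, an H4 gene, had 16.68 and 16.37 with DMSO and 15.01 and 18.75 with IFNg, so its IFNg replicates differed by more than the groups did.

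The count of 18 histone clusters that fell depended on single arrays. It was 5 without polysomal DMSO replicate 1, 2 without polysomal DMSO replicate 2, 5 without polysomal IFNg replicate 1 and 3 without polysomal IFNg replicate 2, and 28 without either total DMSO array. Quantile normalization left 6, with a median of -1.16 for the bright histone clusters and of 0 for all bright clusters. Centring on bright clusters gave medians of -1.13 and 0.1. The polysomal IFNg arrays, as given above, had the lowest mean intensity of the study, and beyond these scalings the part of this in the result was not tested.

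**Figure D2:**
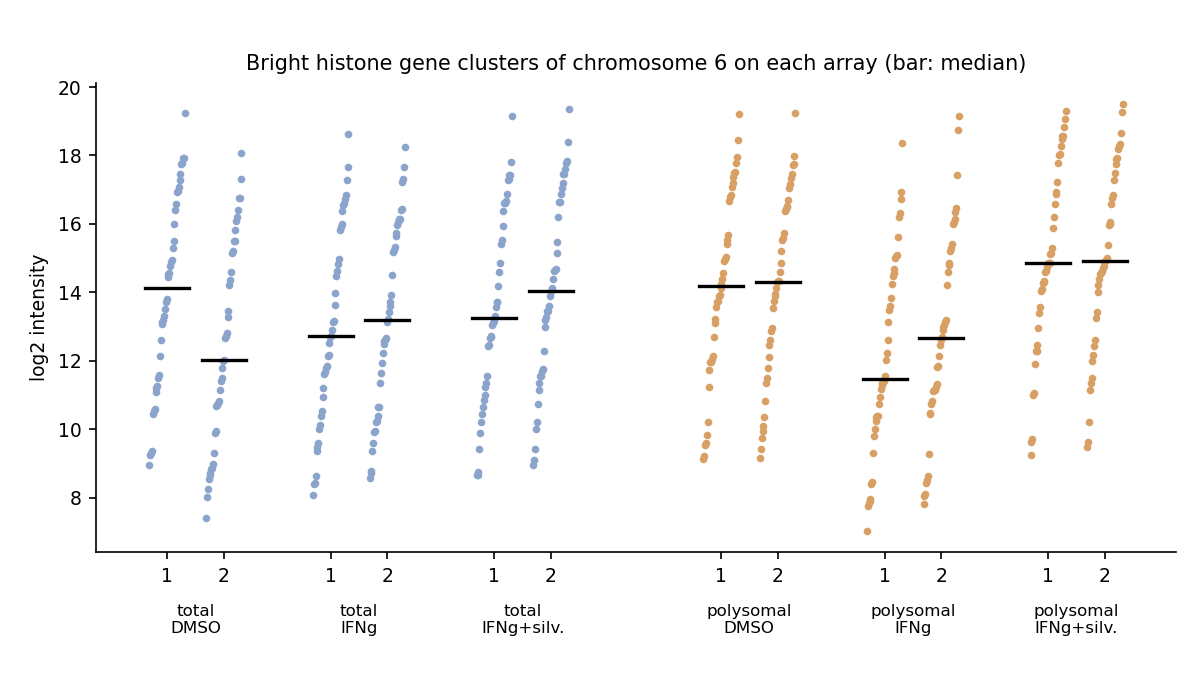
Log2 intensity of the bright histone clusters of chromosome 6 on each of the 12 arrays, with 1 point per cluster and the median marked. Medians on polysomes are 14.19 and 14.32 with DMSO, 11.48 and 12.66 with IFNg and 14.85 and 14.9 with IFNg and silvestrol.

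Unnamed clusters made up 8 of the 44 bright clusters that rose in total RNA, 4 of the 44 that rose on polysomes and 32 of the 141 that fell there. In total RNA TC0600007674.hg.1 rose by 5.29 (SE 0.62, adjusted p = 0.00111), from 4.09 and 4.80 to 10.03 and 9.43. On polysomes it was at 5.28 and 6.83 with DMSO and 8.22 and 6.33 with IFNg, so those groups overlapped. TC0600007655.hg.1 rose by 6.16 (SE 1.15, adjusted p = 0.0458) in total RNA, from 4.88 and 7.96 to 13.27 and 11.89, a call that 13 of 21 alternatives ended, and its polysomal groups also overlapped. DMSO values of both clusters lay partly below 5, so these sizes are uncertain. TC0600011132.hg.1 and TC0600011226.hg.1 went the other way on polysomes, where they fell by 5.8 and 4.64 on the log2 scale. For TC0600011226.hg.1 the polysomal levels were 10.07 and 9.66 with DMSO, 5.33 and 5.13 with IFNg and 11.34 and 10.90 with both agents.

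Silvestrol, in cells that all had IFNg, changed few clusters of chromosome 6 in total RNA. There 4 rose (background 0.0412%) and none fell by limma (background 0.0153%), and all 4 were bright. NCOA7 rose furthest of the named ones, from 10.66 and 10.59 to 13.62 and 13.70, a change of 3.03 (SE 0.27, adjusted p = 0.000983), or 8.17-fold. The zinc finger genes ZFP57, a guardian of imprinted methylation, and ZNF184 rose by 2.17 (adjusted p = 0.0344) and 1.83 (adjusted p = 0.0367), and an unnamed cluster by 3.97. Alternatives ended the call of ZFP57 in 10 of 21 cases and that of ZNF184 in 12 of 21. ZNF184 stood at 9.39 and 9.70 with IFNg and 11.35 and 11.39 with both agents, with no overlap. At an unadjusted p below 0.05, 192 of the 7802 clusters were lower and 180 higher. Among so many clusters this threshold passes some even where nothing changes, so these are not calls. The count of 4 was 1 without any single total array with IFNg, given alone or with silvestrol, and without either polysomal IFNg array.

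On polysomes silvestrol raised 105 chromosome 6 clusters (background 1.09%) and lowered 17 (background 0.301%). Among bright clusters 87 rose (9.24%, background 6.83%) and 14 fell (1.49%, background 1.99%), and 27 of the 87 are unnamed. The 105 became 58 without polysomal IFNg replicate 1, 40 without polysomal IFNg replicate 2 and 28 without polysomal silvestrol replicate 1. The 17 became 11 without either total array with silvestrol or polysomal silvestrol replicate 2, 1 without polysomal IFNg replicate 2 and 0 without polysomal silvestrol replicate 1. After quantile normalization 84 rose and 36 fell, and after centring on bright clusters 81 and 47, so the split towards higher calls was smaller. The comparison shares the polysomal IFNg arrays with the IFNg comparison above, so values are given side by side and no overlap is counted.

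Histone clusters rose on polysomes with silvestrol, 26 in all and 25 of the 42 bright ones, against 6.83% of all bright clusters. The bright ones had a median change of 2.49, against 0.24 for all bright clusters of the table. In total RNA none passed limma's test, 8 had an unadjusted p below 0.05, and the median was 0.72. H1-4 rose by 3.34 (SE 0.4, adjusted p = 0.0021), or 10.1-fold, and H2BC17 by 3.84 (SE 0.61, adjusted p = 0.00965), or 14.4-fold, to 14.63 and 14.62. H3C1 went from 7.96 and 8.44 to 13.58 and 12.42, a rise of 4.8. The dimmer of the 2 clusters annotated as H4C3 rose by 5.07 (SE 0.77, adjusted p = 0.00755), from 9.30 and 10.45 to 15.11 and 14.77. The brighter one, with a mean level of 18.96, changed by 0.64 and did not pass. Against DMSO, cells given both agents had no histone cluster called by limma on polysomes, 14 at an unadjusted p below 0.05, and a median change of 0.66. The count of 26 was 13 without polysomal IFNg replicate 1, 16 without polysomal IFNg replicate 2 and 5 without polysomal silvestrol replicate 1.

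None of 7 class I, 11 class II and 5 antigen-processing genes passed limma's adjusted test with silvestrol in either fraction. Of all bright clusters of the table, 6.83% rose and 1.99% fell on polysomes, and 0.307% rose and 0.128% fell in total RNA. Among so few genes, the absence of calls is near those shares. At an unadjusted p below 0.05, 2 class I genes and 1 class II gene were higher and 1 antigen-processing gene was lower on polysomes, and 1 class II gene and 2 antigen-processing genes were lower in total RNA. A p above the threshold does not show that their levels were equal. HLA-DPB2, a class II pseudogene outside these lists, rose on polysomes by 1.99 (SE 0.43, adjusted p = 0.0393), from 9.25 and 8.29 to 10.48 and 11.03, and 8 of 21 alternatives ended that call. For TAP1 the changes were -0.26 in total RNA and 0.18 on polysomes, and for TAP2 -0.95 and -0.84. HLA-B was at 15.95 and 15.36 on polysomes with IFNg and at 16.97 and 16.79 with both agents, a change of 1.22 (adjusted p = 0.138), and HLA-C changed by 0.9 (adjusted p = 0.226). The HLA-DM chain HLA-DMB changed by -0.93 and -0.73.

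The butyrophilins BTN3A2 and BTN3A1 fell on polysomes with silvestrol. BTN3A2 went from 13.82 and 14.25 with IFNg to 11.70 and 12.10 with both agents, a change of -2.14 (SE 0.32, adjusted p = 0.00651), 4.4-fold lower. BTN3A1 went from 11.01 and 11.80 to 9.24 and 9.52, a change of -2.03 (SE 0.3, adjusted p = 0.00701). No arrays overlapped in either gene, and in total RNA their changes were -1.03 and -1.24 without passing. BTN3A3 changed by -0.9 in total RNA and by -1.37 (adjusted p = 0.0728) on polysomes. Whether these changes differ between the fractions was tested, and none of the 3 genes passed.

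Within the same interferon list, TNFAIP3 rose on polysomes by 2.53 (SE 0.39, adjusted p = 0.00795), from 8.03 and 7.26 to 10.66 and 9.69, and PRDM1 by 1.6 (adjusted p = 0.034). Of genes outside the lists and chosen after their values were seen, CDKN1A, the cyclin-dependent kinase inhibitor p21, rose by 3.19 (SE 0.38, adjusted p = 0.00185), from 8.71 and 8.79 to 12.2 and 11.67. IER3, an immediate early stress gene, rose by 3.16 to 19.04 and 18.38. CCN2, a secreted matricellular protein, rose by 3.52 (adjusted p = 0.0273), with replicates at 15.32 and 13.09. NCOA7 rose by 3.0, or 8-fold, from 9.57 and 8.82 to 12.23 and 12.15. RPS18 rose by 1.34 (adjusted p = 0.0368) after its fall of 1.38 with IFNg, with polysomal levels of 17.82 and 18.17 with DMSO, 16.49 and 16.73 with IFNg and 18.03 and 17.87 with both agents.

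The named bright clusters that fell furthest on polysomes with silvestrol were BTN3A2, BTN3A1 and genes of several unrelated functions. The largest change was that of SLC35F1, a solute carrier family member, at -2.27 (SE 0.43, adjusted p = 0.0215). SLC18B1, a vesicular polyamine transporter, fell by 2.01 and POPDC1, a cAMP-binding membrane protein, by 2 on the log2 scale. The glutamate receptor subunit GRIK2 fell by 1.88, the mRNA capping enzyme RNGTT by 1.85 and the growth factor BMP6 by 1.77. The call ended in 13 of 21 alternatives for BMP6 and in 10 of 21 for GRIK2. SYNCRIP, an RNA-binding protein of the hnRNP family, went from 14.53 and 14.70 with IFNg to 12.91 and 13.05 with both agents, a change of -1.64 (SE 0.25, adjusted p = 0.00726). In total RNA its level was 14.93 and 14.70 with IFNg and 14.39 and 14.09 with both agents, and it did not pass there.

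Cells given both agents had higher levels of antigen presentation genes than DMSO cells. This comparison shares its arrays with those above. In total RNA 73 clusters were higher (background 0.534%) and 11 lower (background 0.179%), and on polysomes 75 were higher (background 0.555%) and 58 lower (background 0.914%). TAP1 was higher by 7.7 and 8.06, HLA-DQA1 by 5.8 and 6.52, HLA-DQB1 by 5.66 and 5.79, and HLA-DOA by 6.15 and 5.77. NCOA7, raised by each step, was higher by 5.7 (52.1-fold) in total RNA and by 4.59 (24.1-fold) on polysomes. PSMB9 was higher by 5.67 in total RNA and PSMB8 by 5.41 on polysomes, where the class II genes HLA-DPB2, a pseudogene, and HLA-DQA2 were higher by 5.84 and 5.23. UBD, which missed the threshold with IFNg alone, was higher by 2.68 (adjusted p = 0.00319) and 1.89 (adjusted p = 0.0248).

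BMP6, a bone morphogenetic protein, was the gene lowest against DMSO in both fractions among named bright clusters. Its levels in total RNA were 9.29 and 9.71 with DMSO, 8.03 and 8.08 with IFNg and 6.67 and 6.29 with both agents, a change of -3.02 for both agents against DMSO. On polysomes the levels were 9.61 and 11.01, 8.07 and 7.49, and 6.09 and 5.93, a change of -4.3 (adjusted p = 9.87e-05). TBC1D7 and TPD52L1 were lower in both fractions, with changes of -2.24 and -1.87 in total RNA and of -2.95 and -2.69 on polysomes. SLC16A10, an aromatic amino acid transporter, had changes of -2.84 and -2.46.

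The other bright genes with the largest decreases in total RNA were SLC18B1 (-2.32), SLC35F1 (-2.23), the nucleoside transporter SLC29A1 (-1.99), the stress-induced SESN1 (-1.96) and the histone deacetylase HDAC2 (-1.29), whose call 16 of 21 alternatives ended. On polysomes they were the sulfotransferase UST (-3.24), the nucleotide sugar transporter family member SLC35B3 (-2.57), the ribosome rescue factor HBS1L (-2.56) and the tyrosine kinase FYN (-2.43). Leaving out single arrays moved these counts. The 73 became 44 and 37 without total silvestrol replicates 1 and 2, and the 75 became 47 and 46 without polysomal DMSO replicates 1 and 2 and 44 without polysomal silvestrol replicate 1. The 11 lower in total RNA became 5 without total DMSO replicate 1, 4 without either total array with silvestrol and 17 without either polysomal DMSO array. The 58 became 12 without polysomal DMSO replicate 2, and 13 and 35 without polysomal silvestrol replicates 1 and 2.

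The difference between fractions in the IFNg change, polysomal minus total, was called higher for 1 chromosome 6 cluster (background 0.0107%) and lower for 22 (background 0.16%), 16 of them bright. For silvestrol it was called higher for 6 clusters (background 0.0183%) and lower for none by limma. At an unadjusted p below 0.05, 194 of the 7802 clusters were lower and 338 higher, and this threshold passes some even where nothing changes. MDN1 was the cluster with the higher difference, 2.89 (SE 0.49, adjusted p = 0.0379). Of the 16 bright clusters with a lower difference 14 are unnamed, and the others are H1-4 and HMGN3, a nucleosome-binding protein. PSMB8-AS1, a dim antisense transcript at PSMB8, was also lower by this test, and its strand specificity on the array was not tested. It went from 3.96 and 3.77 to 8.48 and 8.56 in total RNA, and from 3.38 and 3.85 to 6.36 and 6.18 on polysomes, where both agents gave 8.53 and 8.33. All 4 of its DMSO values lay below 5, where levels cannot be told from background, so the sizes of its changes and of their difference are uncertain. The differences of MDN1 and H1-4 were each lost in 13 of 21 alternatives, that of HMGN3 in 17 of 21 and that of PSMB8-AS1 in 17 of 20. HMGN3 was at 9.08 and 9.24 on polysomes with DMSO, 7.53 and 7.35 with IFNg and 8.97 and 9.17 with both agents, while its total RNA lay between 9.39 and 10.06 on all 6 arrays. The 1 became 0 without either total DMSO array, total IFNg replicate 2, either polysomal DMSO array or any array with silvestrol. The 6 became 0 without total silvestrol replicate 1 or either polysomal array with silvestrol, and 1 without total silvestrol replicate 2. Leaving out total IFNg replicate 1 took the 22 to 13, and it was 10 when polysomal DMSO replicate 2 was omitted and 11 when polysomal IFNg replicate 2 was.

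**Figure D3:**
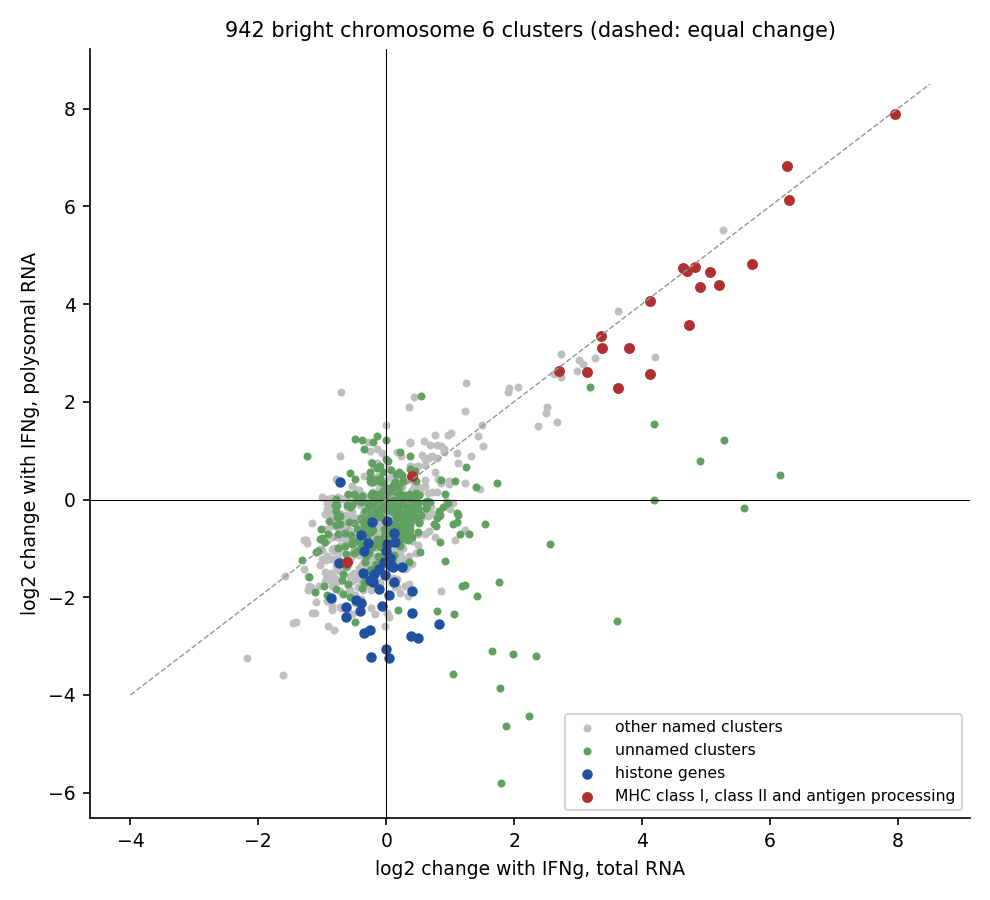
Log2 change with IFNg against DMSO in polysomal RNA (vertical) plotted against the change in total RNA (horizontal) for the 942 bright clusters of chromosome 6, with gene groups in colour and a dashed line at equal change. The MHC and antigen-processing genes that rose lie at upper right, up to TAP1 at 7.96 and 7.88. MICA, at -0.61 and -1.28, and MICB, near the origin, have the same colour and did not pass. Histone clusters have medians of -0.09 on the horizontal axis (0.64 or -0.89 without a single total DMSO array) and -1.67 on the vertical one.

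Changes were grouped by position through the RefSeq order of the named bright clusters, since the array files give no coordinates. Of 88 such clusters from HLA-F to KIFC1, which spans the MHC, 29 (33%) rose with IFNg in total RNA, 30 (34.1%) rose on polysomes and 8 (9.09%) fell there. Of 58 in the histone stretch, 42 of which are histone genes, 4 (6.9%) rose in total RNA, namely BTN3A2, BTN2A2, BTN3A1 and BTN3A3. In that stretch 18 (31%) fell on polysomes and 27 (46.6%) rose on polysomes with silvestrol. Of the other 462, 3 (0.649%) rose in total RNA, 6 (1.3%) rose and 83 (18%) fell on polysomes, and 27 (5.84%) rose there with silvestrol. Decreases on polysomes were therefore spread along the whole chromosome, while increases with IFNg lay mainly within the MHC.

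**Figure D4:**
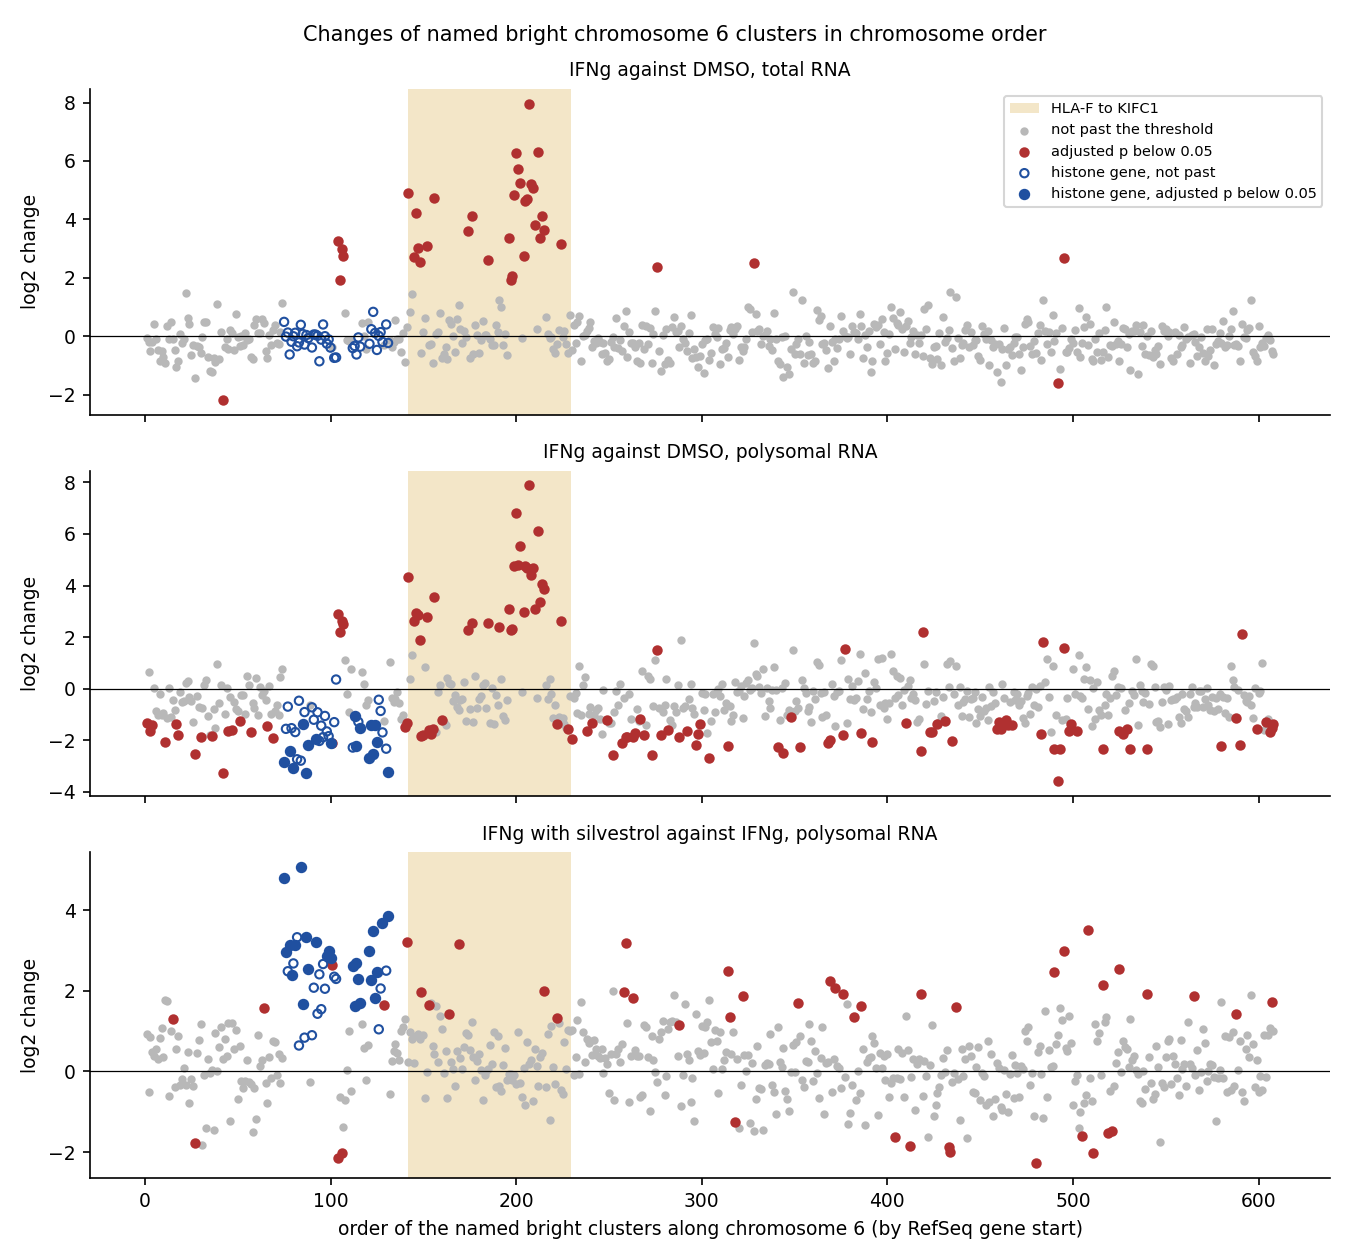
Log2 change of the named bright clusters of chromosome 6 in their RefSeq order along the chromosome, in panels for IFNg against DMSO in total RNA, the same on polysomes, and IFNg with silvestrol against IFNg on polysomes. Shading marks HLA-F to KIFC1, filled colours mark calls and blue marks histone genes. Clusters from HLA-F to KIFC1 hold 29 of the increases with IFNg in total RNA, and the histone stretch holds 18 of the decreases with IFNg and 27 of the increases with silvestrol on polysomes.

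Runs were also read from the array's own row order, as at least 3 clusters called in 1 direction with each at most 10 rows after the one before. This order is not that of the chromosome. DUSP22 and EXOC2 are neighbours in the RefSeq order of named bright clusters, but their identifiers lie far apart. The same stretch can therefore give several runs, and the number of runs is not a number of loci. With IFNg in total RNA 40 of the 56 raised clusters fell into 6 runs, the longest of 9. The butyrophilins BTN3A2, BTN2A2, BTN3A1 and BTN3A3 formed 1 run, at rows 857 to 862 of the chromosome. Class I genes and pseudogenes from HLA-F to HLA-J formed another at rows 1032 to 1054, and HLA-DRA, HLA-DQA1, HLA-DQA2, HLA-DPB1 and HLA-DPB2 with 3 unnamed clusters a further one at rows 1194 to 1222. The run at rows 4962 to 4986 held HLA-DRB9, HLA-DRB5, HLA-DQB1, HLA-DQB2, PSMB8, TAP1, HLA-DOA and HLA-DPA1, with changes of 1.92 to 7.96 and a median of 4.03. C4A, PSMB8-AS1 and PSMB9 lay on consecutive rows 7535 to 7537, and the run of 9 at rows 7684 to 7704 reached from HLA-C and HLA-B to HLA-DMB and HLA-DMA.

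On polysomes 36 of the 64 raised clusters lay in 6 runs with IFNg, and 54 of the 161 lowered ones in 11 runs, 6 of which held histone genes. Non-histone runs included SRSF3, CDKN1A and RNF8 with 2 pseudogenes, and GTF3C6, RPF2 and SLC16A10. With silvestrol 46 of the 105 raised clusters lay in 7 runs, the longest of 10 at rows 4607 to 4625, and 6 of the 7 held histone genes. The exception was PPP1R18, an unnamed cluster and IER3. Asking for strictly consecutive bright clusters left 22 of the 40, 16 of the 36, 23 of the 54 and 20 of the 46, and quantile normalization left 18 of the 54.

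Single arrays moved these run counts too. The 40 became 24 without total DMSO replicate 1 and also without total IFNg replicate 1. The 54 lowered clusters in runs became 25 and 3 without polysomal DMSO replicates 1 and 2 and 14 and 7 without polysomal IFNg replicates 1 and 2. The 46 raised with silvestrol became 22 and 26 without polysomal IFNg replicates 1 and 2, and 12 without polysomal silvestrol replicate 1.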

How the data were processed

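RNA from 12 A375 samples in 6 groups of 2 was biotin labelled and hybridised, 1 array per sample. The deposited table holds linear intensity values per transcript cluster. Which software and normalization gave these deposited intensities is not given in the sources used, and there are no detection calls, probe coordinates or genome build.

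Intensities were taken to log2 with no pseudocount and no filter. A linear model with 1 mean per group was fitted with limma 3.58.1 (R 4.3.3), whose moderated test had 6.72 prior beside 6 residual degrees of freedom. It tested 8 comparisons over all 65535 clusters, called at a Benjamini-Hochberg adjusted p below 0.05. The fit was tested on simulated data. A mean of 2 arrays limits precision: the median SE of a change among bright chromosome 6 clusters was 0.34, or 0.48 for a difference between fractions.

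Symbols came from GEO's platform table, which can be old, with 23 of the symbols updated through RefSeq. Of 7802 clusters 1930 were listed there, 35 of them with several symbols, and 18 were left unnamed because RefSeq puts the gene on another chromosome. RefSeq (GRCh38.p14) gave gene order and promoter windows. The text names every measured gene of 5 lists and, per comparison and direction, up to 10 bright named or unnamed clusters with the largest called change and no overlap of arrays. Unnamed ones are mostly given as counts, and any other gene was chosen after its values were seen. The members and lists were chosen with earlier results of these data known. Alternatives were a replicate block, only the arrays compared, trended robust variances, quantile normalization, centring, filters on dim clusters, other definitions of a run and leaving out each array.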

Additional observations from a re-analysis of the deposited data

Results flagged for a closer look

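The change with IFNg differed between polysomal and total RNA for 23 clusters, by limma's test of the difference itself: it was higher on polysomes for 1 and lower for 22. MDN1 was the one with the higher difference, 2.89 (SE 0.49, adjusted p = 0.0379). The linker histone H1-4 had a difference of -3.29 (SE 0.57, adjusted p = 0.0455), and the dimmer of the clusters named H1-2 one of -3.5 (SE 0.44, adjusted p = 0.00677). The brighter H1-2 cluster changed by -0.345 in total RNA and by -2.73 on polysomes. It passed neither in a fraction nor in the test of the difference. The nucleosome-binding gene HMGN3 had a difference of -2.08 (SE 0.35, adjusted p = 0.0386), and PSMB8-AS1 one of -2 (SE 0.35, adjusted p = 0.0494), from DMSO levels below 5. Most alternatives ended these calls, 17 of 21 for HMGN3, 17 of 20 for PSMB8-AS1 and 13 of 21 each for H1-4 and MDN1. The call of the dimmer H1-2 cluster was kept in all 20. The unnamed TC0600011132.hg.1 differed by -7.6 (SE 1.15, adjusted p = 0.0195) and TC0600011226.hg.1 by -6.51 (SE 0.57, adjusted p = 0.00139), calls that 6 and 0 of 21 alternatives ended.

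The change with silvestrol differed between the fractions for 6 clusters, all higher on polysomes. Among them TC0600011226.hg.1 had a difference of 5.38 (SE 0.57, adjusted p = 0.0114). For TC0600011226.hg.1 both differences rest on the polysomal IFNg arrays, at 5.33 and 5.13, which both comparisons share. Total RNA of that cluster lay at 7.97 and 6.59 with DMSO, 9.54 and 8.77 with IFNg and 9.67 and 9.66 with both agents.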

How the results depend on the processing

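Of 244 calls of named clusters and of the unnamed clusters printed by identifier, 130 held in every alternative, 19 were lost in 10 or more, and 0 reversed. The limits below come from 2 arrays a group, an unknown normalization and no detection calls.

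The labels do not say what a replicate number marks. Deviations of same-numbered arrays correlated at -0.07 to 0.21 over all clusters and at -0.19 to 0.569 over bright ones, highest between total IFNg and total IFNg with silvestrol, and not every pair of groups was over 0.1, so the numbers were not treated as pairs. With the replicate block, 234 of the 244 calls held, 60 clusters rose with IFNg in total RNA (main 56), and the 3 that fell became 1. The block also took the 1 cluster with a higher IFNg difference between fractions to 0. Using only the arrays compared gave 1 lower with IFNg in total RNA, 98 lower on polysomes (main 161), 1 higher (main 4) in total RNA and 6 lower (main 17) on polysomes with silvestrol, 29 lower (main 58) for both agents on polysomes, 0 and 10 for the IFNg difference (main 1 and 22), and 35 clusters in lowered runs (main 54). Trended robust variances gave 1 lower with IFNg and 2 higher with silvestrol in total RNA, and 0 for the higher difference. Quantile normalization gave 65 lower with IFNg and 36 lower with silvestrol on polysomes, 38 lower for both agents, 6 histone clusters lower and 18 in lowered runs.

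Centring on bright clusters gave 849 higher with IFNg on polysomes and 672 in raised runs (main 36), 47 lower with silvestrol, 126 higher for both agents on polysomes (main 75), and 2 and 14 for the IFNg difference. It shifted the median of all clusters by 0.54 for IFNg and -0.27 for silvestrol on polysomes. Testing bright clusters alone gave 36 lower with silvestrol on polysomes, 23 (main 11) and 94 lower for both agents in total and polysomal RNA, 28 histone clusters lower (main 18) and 104 in lowered runs. Clusters at or above the median level gave 17 lower for both agents in total RNA and 87 in lowered runs. A gap of 5 rows left 31 in lowered runs. Strictly consecutive bright clusters left 22, 16, 23 and 20 in runs raised with IFNg in total RNA, raised and lowered with IFNg on polysomes, and raised with silvestrol.

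Leaving out 1 array at a time gave, higher and lower, 35 to 57 and 0 to 4 for IFNg in total RNA, 42 to 69 and 22 to 184 on polysomes, 1 to 4 and 0 to 0 for silvestrol in total RNA, 28 to 119 and 0 to 20 on polysomes, 37 to 77 and 4 to 17 for both agents in total RNA, 44 to 80 and 12 to 59 on polysomes, 0 to 1 and 10 to 27 for the IFNg difference, and 0 to 7 and 0 to 0 for the silvestrol difference. Histone clusters lower ranged from 2 to 28 and higher from 5 to 35, class II genes from 8 to 11 and 9 to 11, and class I and antigen-processing genes stayed at 5. Runs held 24 to 42, 28 to 37, 3 to 80 and 12 to 54 clusters, in the order above.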
